A study of Homo sapiens with 56 samples.

Results

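PICALM and 8 further genes of the clathrin coat (CLTA, CLTB, CLTC, AP2A1, AP2B1, AP2M1, EPN1 and EPS15) were followed on Affymetrix expression arrays in 4 established lines of human cutaneous T-cell lymphoma, a cancer of T cells that home to skin. The members were the probe sets whose only gene symbol in the platform annotation was 1 of these names, which gave 29 of 54675 probe sets for the 9 genes. PICALM had 5 probe sets, CLTA 6, CLTB and AP2A1 4 each, CLTC 3, AP2B1, EPN1 and EPS15 2 each, and AP2M1 1. No member had a probe set that also carried a second symbol. The lines HuT102, MJ and MY-LA were grown for 4 or 8 days and HuT78 for 8 days, either untreated or with MRG-106 (cobomarsen), a synthetic oligonucleotide that blocks miR-155, a microRNA. That made 14 groups by line, day and treatment, with 4 arrays in each and 56 in all. At 96 hours treated and untreated cultures were split by the same dilution, the one that brought untreated cells back to their density at seeding, and the passage medium again held the inhibitor. No dose of MRG-106 is given in the sources used here. All groups used were untreated or MRG-106 wells, so an effect of inhibiting miR-155 cannot be told apart from an effect of adding any oligonucleotide. Each line is 1 established cell line, and nothing in the labels ties the 4 arrays of a group to independent cultures, so the p-values rest on a spread between samples that may be technical.

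Clathrin forms a lattice around membrane buds that carry receptors into the cell. Its triskelion is made of heavy chains (CLTC) with light chains (CLTA, CLTB) bound to them. The AP-2 adaptor, of which AP2A1, AP2B1 and AP2M1 encode subunits, links the lattice to the plasma membrane and to the sorting signals in receptor tails. EPN1 (epsin 1) and EPS15 are accessory proteins that bind AP-2 early in coat assembly, and epsin helps to bend the membrane. PICALM, also called CALM, binds the lipid PIP2, clathrin and AP-2, influences the size of the coat and carries the SNARE proteins VAMP2, VAMP3 and VAMP8 into the vesicle. In T cells this route takes in the transferrin receptor and the antigen receptor, among others.

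The microRNA against which MRG-106 is directed is printed here because every treated group is defined by its inhibition. The mature strand lies at chr21:25573983-25574006 on the plus strand of GRCh38.p14 in RefSeq, and capitals mark its seed, bases 2 to 8, the stretch that pairs with target messenger RNAs.
hsa-miR-155-5p: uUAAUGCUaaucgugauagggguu
No untranslated region of a member was searched for matches to this seed.

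The values are MAS5 signals in array units, scaled by the authors to a common level, and a signal depends on the probe set, so levels are compared between samples of 1 probe set only. Tests were made on log2(signal + 16) with limma, and a change was called at a Benjamini-Hochberg adjusted p under 0.05 over all probe sets tested. After a signal the ± sign gives the SD (n = 4) and after a log2 change its standard error, which limma took from the spread pooled over all 14 groups. The upper quartile of the signal was 377 to 464 over the 56 arrays, and the correlation of log2 values between arrays of 1 group was 0.957 to 0.980. In HuT78, MRG-106 arrays 2, 3 and 4 had upper quartiles of 377 to 382, against 430 for array 1 and 420 to 441 for the untreated arrays, and their part in the HuT78 results is given beside those results. The upper quartile was also higher with MRG-106 in HuT102 at day 8 (448 against 422) and in MJ at day 8 (448 against 430), without overlap, and each best probe set of a member called in those comparisons was also called after quantile normalization, which gives all arrays 1 distribution. Of 10 T cell markers 9 had a probe set, and CD3D, CD3E, CD3G, CD247 and PTPRC reached the median of all values (a signal of 73.9) in every group. CD2 stayed under it in HuT78 (44.4 to 44.5), LCK and CD5 stayed under it in MY-LA (9.57 to 15.3 and 15.6 to 31.4), and CD4 reached it in 1 of 4 MY-LA groups. Markers of other cells were not all low. The epithelial marker EPCAM was at 8889 to 8926 and the keratin KRT1 at 669 to 746 in HuT78. The B cell marker CD79A reached the median in all 14 groups (280 to 412), MS4A1 in 4 and CD79B in 3. The myeloid markers CSF1R (58.9 to 221) and ITGAM (59.6 to 464) reached it in 12 groups each. KRT5, KRT14, CD14 and LYZ reached it in none of the groups. The probe set shared by MIR155 and its host gene MIR155HG had mean signals of 29.9 and 36.2 in the HuT78 groups and of 11499 to 29906 in the groups of the other lines. Bulk RNA cannot separate fewer cells that express a gene from less RNA per cell.

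PICALM was higher with MRG-106 in HuT102, MJ and MY-LA at both days, by 2.9 to 4.6 times, and no such change was measured in HuT78. The values of its best probe set, 212506_at, which is the one with the highest mean over the 56 arrays, are given array by array. In HuT102 at day 4 the untreated arrays read 913, 1307, 1427 and 1490, and the MRG-106 arrays 5528, 5627, 5681 and 6946. At day 8 the same line read 1439, 1579, 1695 and 1704 untreated and 5311, 6502, 7390 and 7399 with MRG-106. The lowest treated array lay well over the highest untreated array on both days, and the log2 changes were 2.21 ± 0.11 (limma adjusted p = 5.1e-23) and 2.03 ± 0.11 (limma adjusted p = 4.2e-22). MJ gave 1620, 1737, 1866 and 1986 untreated and 5502, 5593, 5682 and 5877 with MRG-106 at day 4. At day 8 MJ read 1801, 1885, 1904 and 2010 untreated and 5128, 5299, 5730 and 6050 with MRG-106. Again no arrays overlapped, with log2 changes of 1.65 ± 0.11 (limma adjusted p = 3.0e-18) and 1.54 ± 0.11 (limma adjusted p = 2.1e-17). In MY-LA the untreated arrays read 1679, 1838, 2048 and 2105 at day 4, and the treated arrays 6443, 6465, 6741 and 7404. At day 8 they read 1642, 1682, 1788 and 1998 untreated and 6871, 7049, 8135 and 8749 with MRG-106, the last being the highest signal on this probe set. The log2 changes in MY-LA were 1.81 ± 0.11 (limma adjusted p = 1.7e-19) and 2.10 ± 0.11 (limma adjusted p = 1.6e-22).

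On 212506_at HuT78 had a higher untreated PICALM signal than the other lines, and its treated signal did not differ from it beyond the spread. Its untreated arrays read 3413, 3531, 3868 and 3996, and its MRG-106 arrays 2768, 3512, 3601 and 3622. The groups overlapped, and the log2 change was -0.14 ± 0.11 (95% interval -0.35 to 0.08, limma adjusted p = 0.42). With MRG-106 array 1 alone in the treated group it was -0.07 (limma adjusted p = 1). That fit kept 1 treated array and also left out the arrays that stood apart in upper quartile. It therefore cannot separate the loss of arrays from the part of those arrays. The day 8 effect of HuT78 was smaller than that of HuT102 by 2.17 ± 0.15, than that of MJ by 1.68 ± 0.15 and than that of MY-LA by 2.24 ± 0.15 on the log2 scale, and each of these differences was itself called (largest limma adjusted p = 7.0e-13).

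**Figure D1:**
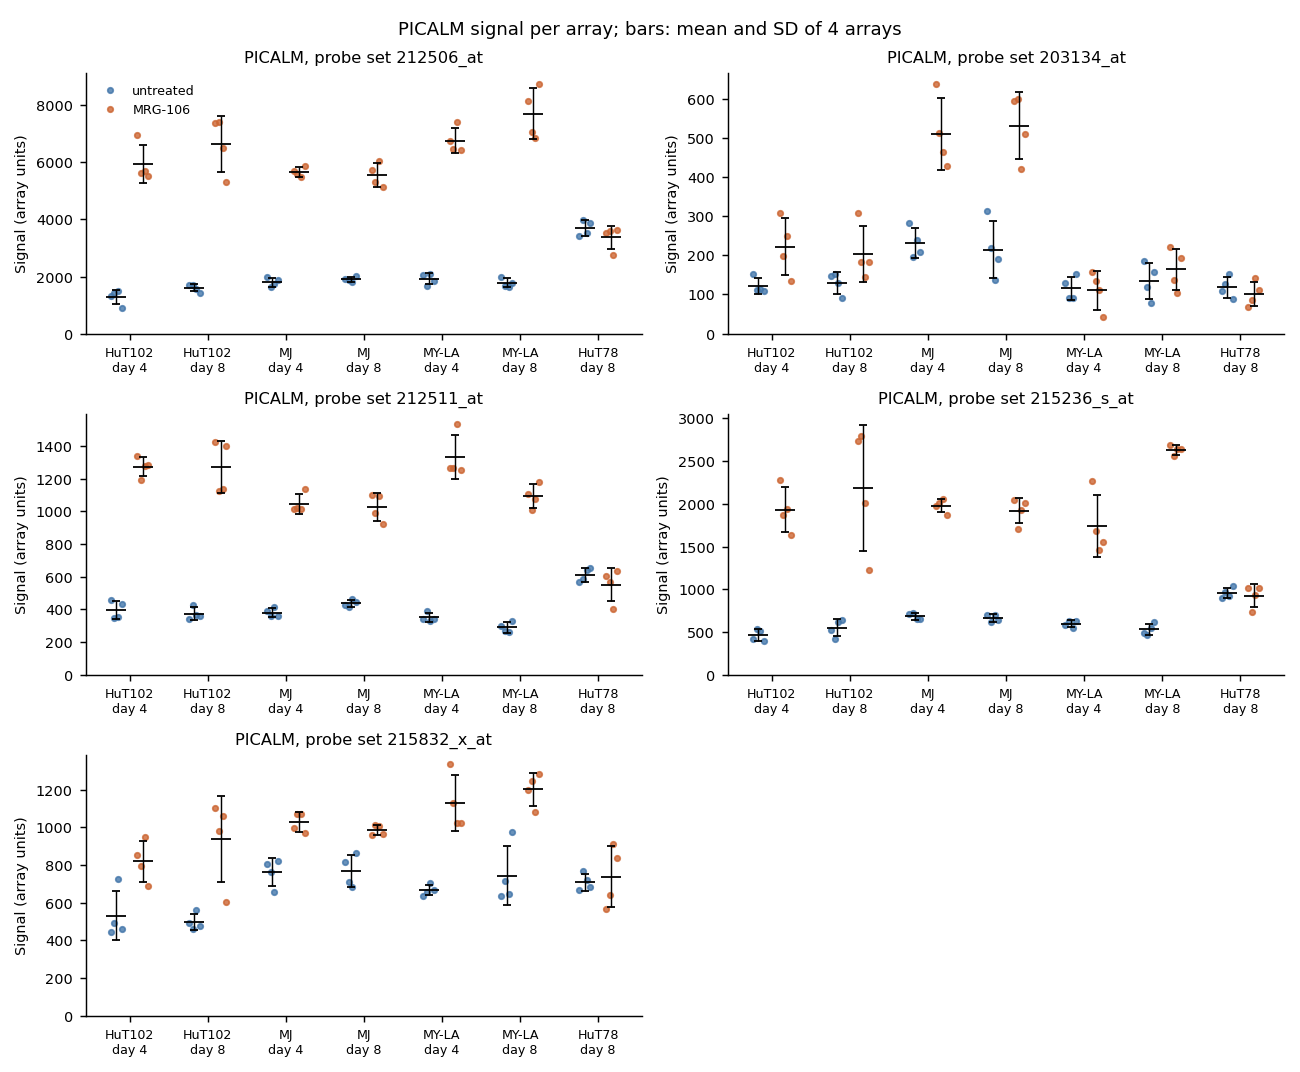
PICALM signal (array units, linear axes from 0) on each array for its 5 probe sets, by line and day, with untreated arrays in blue and MRG-106 arrays in orange, and with horizontal bars and error bars for the mean and SD of 4 arrays. On 212506_at the treated arrays of HuT102, MJ and MY-LA sit between 5128 and 8749 and the untreated ones between 913 and 2105, while both HuT78 groups lie between 2768 and 3996.

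The size of the PICALM rise also differed among the 3 responding lines. At day 8 the effect in MJ was smaller than in HuT102 by 0.49 ± 0.15 (limma adjusted p = 0.013) and smaller than in MY-LA by 0.57 ± 0.15 (limma adjusted p = 0.0031). HuT102 and MY-LA differed by -0.07 ± 0.15, with a 95% interval of -0.37 to 0.23. At day 4 the effect in HuT102 exceeded that in MJ by 0.57 ± 0.15 (limma adjusted p = 0.0089). The 2 other pairs of lines at day 4 were not called, with differences of 0.40 ± 0.15 for HuT102 minus MY-LA and -0.17 ± 0.15 for MJ minus MY-LA (lowest limma adjusted p = 0.068). That between HuT102 and MY-LA was called after quantile normalization (0.46, limma adjusted p = 0.026) and with the filter at the 75th percentile (limma adjusted p = 0.047). Without HuT102 untreated array 4 at day 4, which had the lowest PICALM signal, the difference between HuT102 and MJ was 0.41 and was no longer called (limma adjusted p = 0.051). The rise did not change between days beyond the error in these lines: day 8 minus day 4 was -0.18 ± 0.15 in HuT102, -0.11 ± 0.15 in MJ and 0.29 ± 0.15 in MY-LA, with 95% intervals that together span -0.48 to 0.59.

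The other PICALM probe sets fell into 2 kinds. Probe sets 212511_at and 215236_s_at were called higher at both days in HuT102, MJ and MY-LA, with log2 changes of 1.20 to 1.88 and of 1.5 to 2.29, and neither was called in HuT78. Over the 14 group means their Pearson correlation with 212506_at was 0.956 and 0.981, as a description of arrays that share lines and treatment. On 215236_s_at the effect in MY-LA was larger at day 8 than at day 4 by 0.79 ± 0.21 (limma adjusted p = 0.0066), which neither 212506_at nor 212511_at showed (0.29 ± 0.15 and -0.01 ± 0.15, neither called). The treated MY-LA arrays read 1457, 1555, 1687 and 2270 on that probe set at day 4 and 2559, 2637, 2642 and 2695 at day 8. All arrays of the later day were higher. Probe set 215832_x_at rose less, by 0.36 to 0.85, and was called in 5 of the 6 comparisons but not in MJ at day 8 (limma adjusted p = 0.051), and the call in MJ at day 4 was lost in 3 of 8 fits that each left out 1 array. The dimmest, 203134_at, rose in HuT102 at day 4 (0.75 ± 0.27) and in MJ at both days (1.09 ± 0.27 and 1.29 ± 0.27). The call in HuT102 was lost in 6 of 8 fits that each left out 1 array (0.58 to 0.95) and under 4 other settings (limma adjusted p = 0.056 to 0.082). In MY-LA it was at -0.13 ± 0.27 and 0.26 ± 0.27, and its correlation with 212506_at was 0.348. The lowest signals belonged to this probe set, with group means of 101.7 to 531, and the files used here do not say which transcript forms each probe set detects.

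Among all 9 members, PICALM was the single gene called higher at both days in all of HuT102, MJ and MY-LA. By the best probe set of each gene, 3 of 9 members were called in HuT102 at day 4 (2 higher, 1 lower), where 21.6% of all genes tested were called. At day 8 HuT102 had 4 of 9 (3 higher, 1 lower), against 39.1% of all genes. MJ had 3 of 9 at day 4 (1 higher, 2 lower) against 26.0%, and 2 of 9 at day 8 (1 higher, 1 lower) against 32.2%. MY-LA had 3 of 8 at day 4 (1 higher, 2 lower) against 25.2%, and 4 of 8 at day 8 (3 higher, 1 lower) against 40.8%, with EPN1 too dim to be tested. HuT78 had 2 of 9, both higher, against 19.9%. These shares lie near those of all genes, so the set as a whole did not stand out by its count of calls. The median log2 change of the members was between -0.14 and 0.16 over the 7 comparisons, and that of all genes tested, by best probe sets too, between -0.05 and 0.02.

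**Figure D2:**
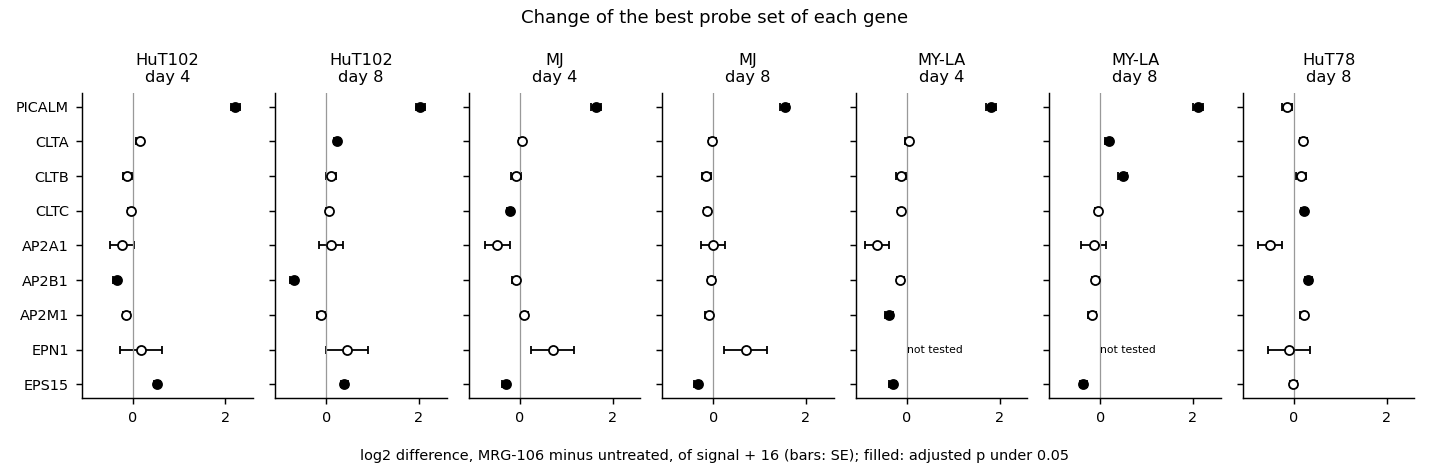
Log2 difference of signal + 16 between MRG-106 and untreated arrays for the best probe set of each of the 9 genes, in 7 panels by line and day. Points are limma estimates with their SE as bars, and filled points had an adjusted p under 0.05. PICALM lies at 1.54 to 2.21 in the first 6 panels and at -0.14 in HuT78, while EPS15 lies right of 0 in HuT102 and left of 0 in MJ and MY-LA.

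The clathrin chains themselves changed little. CLTC, the heavy chain, was called lower in MJ at day 4, where its untreated arrays read 12540, 13050, 14220 and 14925 and its treated arrays 11284, 11607, 11798 and 12578. The log2 change was -0.21 ± 0.06 (limma adjusted p = 0.0096), the ranges overlapped, and without untreated array 2 the change was -0.17 and was not called (limma adjusted p = 0.069). In the 5 other comparisons of HuT102, MJ and MY-LA its change lay between -0.13 and 0.07, none called. Under other settings CLTC was called in MY-LA at day 4 (quantile normalization) and in MJ at day 8 (only the arrays compared). In HuT78 CLTC was called higher by 0.23 ± 0.06 (limma adjusted p = 0.010), from 10938, 11053, 11260 and 11573 to 12128, 12146, 13695 and 14590. With MRG-106 array 1 alone in the treated group that change was 0.11 and was not called (limma adjusted p = 1), and after quantile normalization it was 0.05 (limma adjusted p = 0.64). The 2 other CLTC probe sets, 210498_at and 239871_at, were under the level needed for a test in every comparison.

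CLTA and CLTB, the light chains, rose in a few comparisons and by small amounts. CLTA (probe set 200960_x_at) was called higher in HuT102 at day 8, with untreated arrays at 8426, 8923, 9412 and 9701 and treated arrays at 9672, 10532, 11299 and 11397. The groups overlapped slightly, and the log2 change was 0.23 ± 0.07 (limma adjusted p = 0.011). Without untreated array 2 it was 0.20 and was not called (limma adjusted p = 0.052). In MY-LA at day 8 the untreated CLTA arrays read 7687, 9630, 9765 and 11391 and the treated arrays 10497, 10822, 10949 and 10995. The treated arrays lay inside the range of the untreated ones, and the log2 change of 0.18 ± 0.07 (limma adjusted p = 0.047) was lost in 7 of the 8 fits that each left out 1 array of these groups, where it ranged from 0.08 to 0.27. In HuT78 the CLTA estimate was 0.20 ± 0.07, which was not called (limma adjusted p = 0.051) but was called with either other pseudocount, with the filter at the 75th percentile and with 1 probe set per gene. A second CLTA probe set, 204050_s_at, was called higher in HuT102 at day 4 (0.20 ± 0.06), in HuT102 at day 8 (0.26 ± 0.06) and in HuT78 (0.23 ± 0.06). The HuT78 change was 0.16 with MRG-106 array 1 alone (limma adjusted p = 1) and was not called with only the HuT78 arrays in the fit (limma adjusted p = 0.17). The call in HuT102 at day 4 was lost without MRG-106 array 3 (0.17, limma adjusted p = 0.053) and with only the HuT102 arrays in the fit (limma adjusted p = 0.054). The dimmer 1560434_x_at was called higher in HuT102 at day 8 (0.82 ± 0.20) and lower in HuT78 (-0.78 ± 0.20), and with MRG-106 array 1 alone in the treated HuT78 group the latter change was -0.01. Probe set 216295_s_at, brighter than 204050_s_at, was called in none of the 6 comparisons of HuT102, MJ and MY-LA. Its changes there were -0.12 to 0.22 (lowest limma adjusted p = 0.065). The dim 216293_at was called in none of them either (-0.44 to 0.66).

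CLTB (probe set 211043_s_at) was called higher in MY-LA at day 8. The untreated arrays read 628, 641, 770 and 821 there, and the treated arrays 805, 1031, 1033 and 1160, so the ranges overlapped by 1 array of each group. The log2 change was 0.48 ± 0.10 (limma adjusted p = 0.00012), and a second probe set, 206284_x_at, gave 0.37 ± 0.09 without overlap (575, 638, 656 and 733 against 764, 810, 890 and 905). At day 4 the change in MY-LA was -0.12 ± 0.10, which was not called, and day 8 minus day 4 was 0.61 ± 0.14 (limma adjusted p = 0.0025). The day 8 effect of CLTB in MY-LA exceeded that in MJ by 0.63 ± 0.14 (limma adjusted p = 5.1e-04) and that in HuT102 by 0.38 ± 0.14 (limma adjusted p = 0.036). The difference from HuT102 was lost after quantile normalization (0.28, limma adjusted p = 0.13), under 3 other settings (limma adjusted p = 0.054 to 0.071) and in 9 of 16 fits that each left out 1 array. On 206284_x_at the difference from MJ was called (0.46 ± 0.13) and the difference from HuT102 was not (0.12 ± 0.13). Probe set 206284_x_at was also called higher in HuT102 at day 8 (0.25 ± 0.09, limma adjusted p = 0.032) and in HuT78 (0.26 ± 0.09, limma adjusted p = 0.044), but not without the filter on low values (limma adjusted p = 0.056 and 0.087) or, in HuT78, with MRG-106 array 1 alone (0.20, limma adjusted p = 1). Probe set 205172_x_at was called higher in HuT102 at day 8 alone (0.48 ± 0.13), and 221996_s_at was too dim for a test in every comparison.

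Of the AP-2 subunits, AP2B1, the beta chain that binds clathrin, fell in HuT102. On 200615_s_at the untreated HuT102 arrays read 1872, 1900, 1913 and 2291 at day 4 and the treated arrays 1481, 1544, 1595 and 1629. At day 8 they read 2087, 2149, 2241 and 2404 untreated and 1262, 1284, 1355 and 1529 with MRG-106. Every treated array lay below every untreated one, with log2 changes of -0.34 ± 0.08 (limma adjusted p = 5.4e-04) and -0.71 ± 0.08 (limma adjusted p = 4.5e-11). The later change was the greater by 0.36 ± 0.11 (limma adjusted p = 0.035), a difference that was lost without the filter on low values (limma adjusted p = 0.062) and in 9 of 16 fits that each left out 1 array. In MJ the changes were -0.09 ± 0.08 and -0.05 ± 0.08 and in MY-LA -0.14 ± 0.08 and -0.10 ± 0.08, none of them called. The day 8 effect in HuT102 was lower than in MJ by 0.66 ± 0.11, than in MY-LA by 0.60 ± 0.11 and than in HuT78 by 1.01 ± 0.11, each called. HuT78 was called higher by 0.31 ± 0.08 (limma adjusted p = 0.0042), from 1290, 1305, 1357 and 1440 to 1430, 1515, 1862 and 1936. With MRG-106 array 1 alone in the treated group the rise was 0.09 (limma adjusted p = 1), and the called differences of HuT78 from MJ and MY-LA were lost too. The difference of HuT78 from HuT102 was 0.79 under that setting and was still called (limma adjusted p = 4.2e-06).

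The second AP2B1 probe set, 200612_s_at, gave the same fall in HuT102 at day 8 but another picture in MJ. In HuT102 at day 8 it read 1205, 1270, 1290 and 1548 untreated and 674, 802, 809 and 1017 with MRG-106, a log2 change of -0.68 ± 0.14 (limma adjusted p = 1.1e-04). At day 4 the change was -0.37 ± 0.14 and was not called (limma adjusted p = 0.061). In MJ it was called higher at day 4 by 0.48 ± 0.14, with untreated arrays at 854, 931, 1038 and 1217 and treated arrays at 1137, 1437, 1479 and 1607. Without untreated array 3 that rise was 0.41 and was not called (limma adjusted p = 0.052). At day 8 the rise in MJ was again 0.48 ± 0.14, from 891, 1001, 1032 and 1204 to 1219, 1327, 1606 and 1627, without overlap. In HuT78 it was at -0.21 ± 0.14, which was not called. Over the 14 group means the 2 AP2B1 probe sets had a Pearson correlation of 0.095, and the fall in HuT102 at day 8 was the one call that both shared.

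AP2M1, the mu chain that reads tyrosine-based sorting signals, has 1 probe set and fell in MY-LA at day 4. The untreated arrays read 6806, 7254, 7827 and 8613 and the treated arrays 4973, 5705, 6165 and 6581, without overlap, and the log2 change was -0.38 ± 0.08 (limma adjusted p = 5.0e-04). At day 8 in MY-LA it was -0.18 ± 0.08 and was not called (limma adjusted p = 0.087). In HuT102 and MJ it lay between -0.14 and 0.10, and in HuT78 it was 0.21 ± 0.08 (limma adjusted p = 0.081), none called. The day 4 effect in MJ exceeded that in MY-LA by 0.48 ± 0.12 (limma adjusted p = 0.0034).

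AP2A1, which encodes an alpha chain of AP-2, was dim on all 4 probe sets, and its best, 234068_s_at, had group means of 78.2 to 209. No change was called on it in any of the 7 comparisons, with estimates from -0.65 ± 0.26 in MY-LA at day 4 (limma adjusted p = 0.064) to 0.11 ± 0.26 in HuT102 at day 8. The change in MY-LA at day 4 was called with log2(signal + 64) and in at least 1 fit that left out 1 array. Another probe set, 223237_x_at, was called lower in MY-LA at day 8 (-1.09 ± 0.41, limma adjusted p = 0.034) but not without the filter on low values (limma adjusted p = 0.066), and it was lost in 5 of 8 fits that each left out 1 array. EPN1 (226667_x_at) had group means of 57.9 to 159 and was tested in 4 of the 6 comparisons of HuT102, MJ and MY-LA and in HuT78. None was called (lowest limma adjusted p = 0.29), and the 95% intervals in HuT102 and MJ together ran from -0.74 to 1.62, so rises of over 2 times lay within the error in some of them.

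EPS15, an early scaffold of the coated pit, moved in opposite directions in different lines. In HuT102 the probe set 217887_s_at read 4849, 4892, 5223 and 5451 untreated and 7146, 7183, 7197 and 7771 with MRG-106 at day 4. At day 8 it read 5542, 5707, 5750 and 5861 untreated and 7201, 7440, 7500 and 7914 with MRG-106. The treated arrays were the higher on both days, by 0.52 ± 0.07 (limma adjusted p = 9.0e-08) and 0.39 ± 0.07 (limma adjusted p = 9.5e-06) on the log2 scale. MJ read 3266, 3325, 3721 and 3742 untreated and 2724, 2822, 2890 and 2915 with MRG-106 at day 4. At day 8 it read 3754, 3797, 3828 and 3916 untreated and 2930, 3052, 3052 and 3053 with MRG-106. Here the treated arrays were the lower, with log2 changes of -0.30 ± 0.07 (limma adjusted p = 7.8e-04) and -0.34 ± 0.07 (limma adjusted p = 1.4e-04).

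MY-LA moved as MJ did. Its untreated EPS15 arrays read 3858, 3992, 4077 and 4234 at day 4 and its treated arrays 2643, 3423, 3515 and 3589, a change of -0.30 ± 0.07 (limma adjusted p = 9.4e-04). At day 8 the arrays read 4418, 4585, 4590 and 4865 untreated and 3308, 3533, 3586 and 3932 with MRG-106, a change of -0.36 ± 0.07 (limma adjusted p = 3.7e-05). In HuT78 they read 1899, 2022, 2093 and 2172 untreated and 1678, 2117, 2158 and 2206 with MRG-106, a change of -0.01 ± 0.07 with a 95% interval of -0.15 to 0.13. No arrays overlapped in the 6 comparisons of the first 3 lines, whereas the HuT78 groups did. The effect in HuT102 exceeded that in MJ by 0.82 ± 0.10 at day 4 (limma adjusted p = 1.5e-08) and 0.73 ± 0.10 at day 8, and that in MY-LA by 0.82 ± 0.10 and 0.76 ± 0.10, each called. The second EPS15 probe set, 217886_at, was called higher in HuT102 at day 4 alone (0.43 ± 0.14, limma adjusted p = 0.022), a call lost in 3 of 8 fits that each left out 1 array (0.30 to 0.55). It was at -0.27 ± 0.14 and 0.00 ± 0.14 in MJ and at 0.14 ± 0.14 and -0.04 ± 0.14 in MY-LA, none called, so the falls in those lines were measured on 1 of the 2 probe sets.

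**Figure D3:**
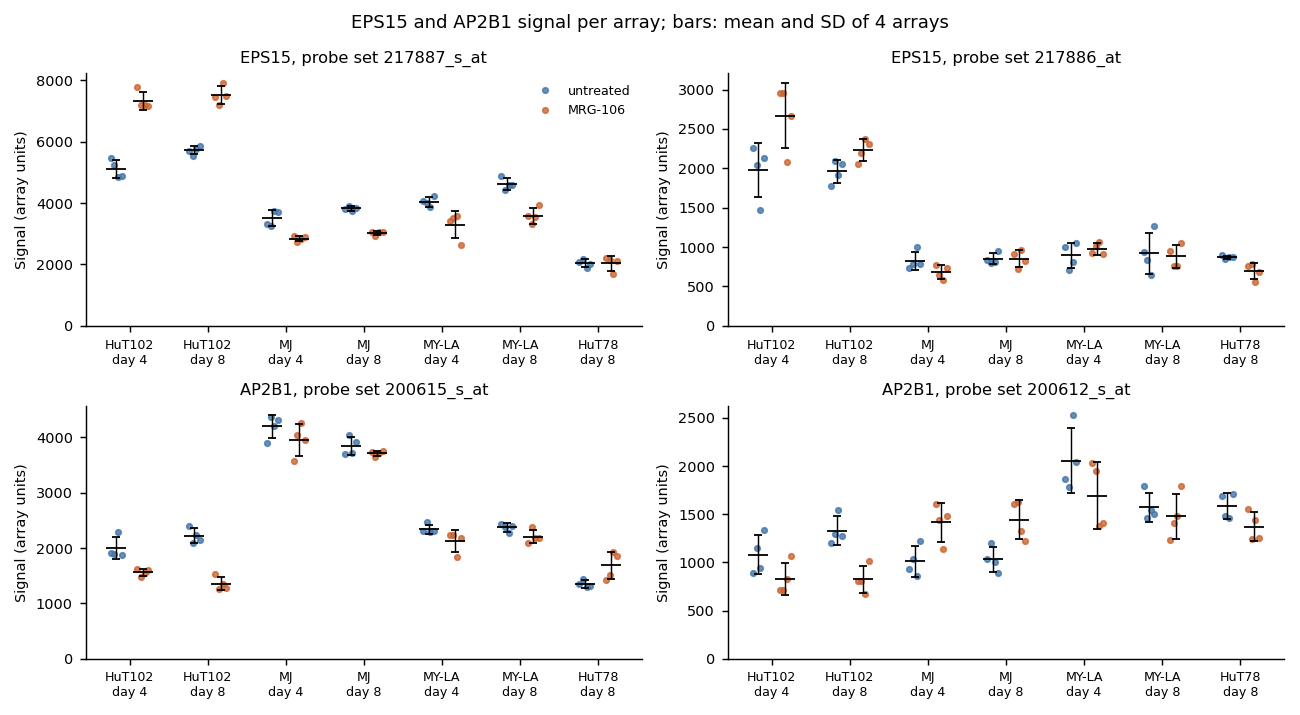
Signal (array units, linear axes from 0) on each array for both probe sets of EPS15 (top) and of AP2B1 (bottom), by line and day, with untreated arrays in blue and MRG-106 arrays in orange, and with horizontal bars and error bars for the mean and SD of 4 arrays. On 217887_s_at the treated EPS15 arrays lie over the untreated ones in HuT102 and under them in MJ and MY-LA, while AP2B1 falls in HuT102 at day 8 on both of its probe sets.

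The effect of MRG-106 rarely differed between day 4 and day 8. By the best probe sets, 1 of 9 members was called for that difference in HuT102 (AP2B1), where 6.25% of all genes were called. In MJ it was 0 of 9, against 0.888% of all genes, with 0 at an unadjusted p under 0.05 (lowest limma adjusted p = 0.84). In MY-LA it was 1 of 8 (CLTB), against 15.7%. Time in culture without the inhibitor moved the members as little. From day 4 to day 8 the untreated arrays differed for 1 of 9 members in HuT102 (PICALM), against 7.98% of all genes. For MJ the count was 0 of 9 against 1.48%, with 0 at an unadjusted p under 0.05 (lowest limma adjusted p = 0.49), and for MY-LA 0 of 8 against 11.7%, with 1, EPS15, at an unadjusted p under 0.05 (lowest limma adjusted p = 0.076). The PICALM difference of HuT102 was 0.34 ± 0.11 (limma adjusted p = 0.040). It was lost in 5 of 8 fits that each left out 1 array, where it ranged from 0.19 to 0.42.

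The day 8 effect differed between the 4 lines for 6 of 9 members (AP2B1, AP2M1, CLTB, CLTC, EPS15 and PICALM), against 63.9% of all genes, by limma's F test. The differences for AP2M1 and CLTC were lost after quantile normalization and with HuT78 MRG-106 array 1 alone. By pairs of lines, 3 of 9 members were called between HuT102 and MJ (26.4% of all genes), 3 of 9 between HuT102 and MY-LA (38.0%) and 4 of 9 between HuT102 and HuT78 (35.9%). Between MJ and MY-LA 2 of 9 were called (32.1%), between MJ and HuT78 4 of 9 (34.2%) and between MY-LA and HuT78 5 of 9 (37.2%). At day 4 the counts were 2 of 9 between HuT102 and MJ (EPS15 and PICALM, 11.3% of all genes), 1 of 9 between HuT102 and MY-LA (EPS15, 15.3%) and 1 of 9 between MJ and MY-LA (AP2M1, 15.9%). The numbers in the sample titles fall into 2 separate ranges, HuT102 and MJ in the first and MY-LA and HuT78 in the other, and whatever the ranges stand for cannot be told apart from the lines in comparisons across them.

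Untreated cells of the 4 lines differed in most genes, and in most of these members too. At day 8 the untreated levels differed between the 4 lines for 7 of 9 members by limma's F test, all but AP2A1 and EPN1, against 90.9% of all genes. For AP2A1 that test was called with log2(signal + 64), with quantile normalization and with only the arrays of the lines compared. Between MY-LA and HuT78 both dim genes were called, with MY-LA minus HuT78 at 0.72 for AP2A1 and -1.09 for EPN1. These calls were lost in 1 and 3 of 8 fits that each left out 1 array. PICALM averaged 3702 ± 275 in HuT78, 1900 ± 85.9 in MJ, 1778 ± 159 in MY-LA and 1604 ± 124 in HuT102. On 212506_at HuT78 was higher than HuT102 by 1.20 ± 0.11, than MJ by 0.95 ± 0.11 and than MY-LA by 1.05 ± 0.11 on the log2 scale (largest limma adjusted p = 2.4e-11), and no difference among the 3 other lines was called. That between HuT102 and MJ was close to the threshold (-0.24 ± 0.11) and was called under 4 of the alternative settings (limma adjusted p = 0.0081 to 0.044). Probe sets 212511_at and 215236_s_at also had HuT78 above the other lines, by 0.46 to 1.04. The dimmest, 203134_at, had another order. There MJ was above HuT78 by 0.74 and above MY-LA by 0.61, and HuT102 minus MJ was -0.63, each called. These calls were lost in 2, 5 and 5 of 8 fits that each left out 1 array. On 212506_at every treated array of the other 3 lines, the lowest of them at 5128, exceeded the highest untreated HuT78 array, at 3996.

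EPS15 had another order, with HuT102 at 5715 ± 132, MY-LA at 4615 ± 185, MJ at 3824 ± 68.4 and HuT78 at 2046 ± 116, and each neighbouring pair was called. On 200615_s_at AP2B1 was highest in MJ (3842 ± 162) and lowest in HuT78 (1348 ± 67.8), while MY-LA (2373 ± 75.3) and HuT102 (2220 ± 138) were not told apart. On its second probe set, 200612_s_at, MJ was instead below HuT102. There HuT102 minus MJ was 0.36, a call lost in 3 of 8 fits that each left out 1 array. CLTB was lowest in MY-LA, at 715 ± 95.6, against 1586 ± 81.2 in HuT102, 1536 ± 95.2 in MJ and 1837 ± 183 in HuT78. CLTC ran from 16229 ± 579 in MY-LA through 14491 ± 927 in HuT102 and 13008 ± 359 in MJ to 11206 ± 279 in HuT78, with each neighbouring pair called. Of these, HuT102 against MJ (0.15) was lost without a filter (limma adjusted p = 0.056), without the trend (limma adjusted p = 0.070) and in 4 of 8 fits that each left out 1 array, and HuT102 against MY-LA (-0.16) was lost after quantile normalization (-0.10, limma adjusted p = 0.11) and in 3 of 8 such fits. AP2M1 was higher in MY-LA (7701 ± 518) and HuT78 (7290 ± 319), which were not told apart, than in HuT102 (5968 ± 411) and MJ (5090 ± 445), and the call between the last 2 (0.23) was lost in 2 of 8 fits that each left out 1 array. CLTA, at 8122 ± 395 in HuT78, was lower there than in the other lines by 0.17 to 0.27, and the call against HuT102 was lost in 6 of 8 such fits and that against MY-LA in 1. By pairs, 4 of 9 members were called between HuT102 and MJ (56.9% of all genes), 4 of 9 between HuT102 and MY-LA (68.6%), 6 of 9 between HuT102 and HuT78 (73.2%), 5 of 8 between MJ and MY-LA (65.0%), 7 of 9 between MJ and HuT78 (68.8%) and 8 of 9 between MY-LA and HuT78 (74.6%).

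**Figure D4:**
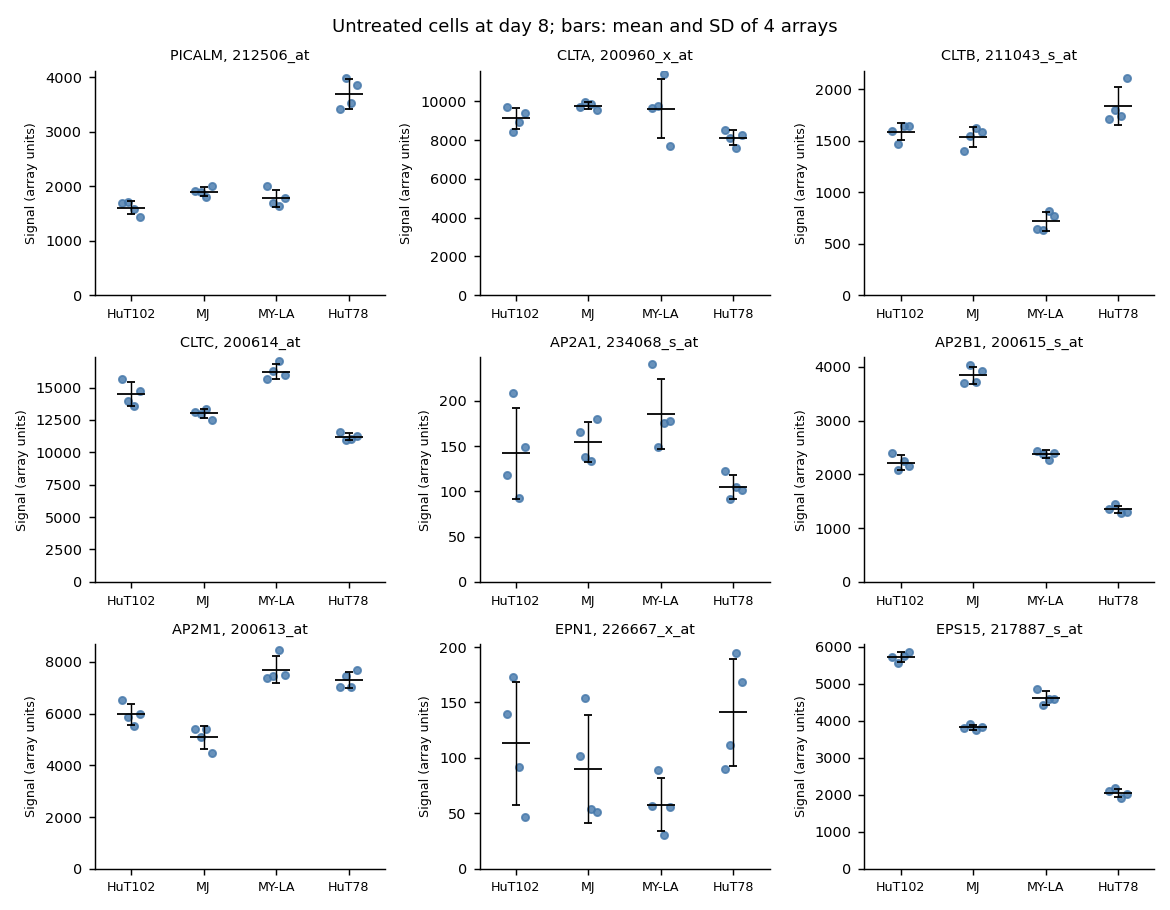
Signal (array units) of the 4 untreated day 8 arrays of each line for the best probe set of each of the 9 genes, with bars for the mean and SD. PICALM is highest in HuT78 (3702 ± 275) and EPS15 lowest there (2046 ± 116), and CLTB is lowest in MY-LA (715 ± 95.6).

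Over the 14 group means, the genes whose pattern was most like that of PICALM were UBQLN1, which encodes a ubiquilin (Pearson r = 0.952), ZMYND11, a reader of histone marks (0.948), DET1 (0.946), PALS1, a cell polarity scaffold (0.930), and ARID2, a subunit of a chromatin remodelling complex (0.927). They were the first 5 of 11713 genes ranked, as a description of groups that share lines and treatment. None of the other members came near: CLTA ranked 505th (0.454) and EPN1 630th (0.417), and the 6 remaining members lay between -0.29 and -0.05.

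The wider pathway was read through 5 lists of genes drawn up by function. Each listed gene was read on its best probe set alone. Of 25 other coat and adaptor genes of the plasma membrane 21 had a probe set. In HuT102 3 rose and 2 fell of 16 tested at day 4, and 9 rose and 1 fell of 16 at day 8. MJ had 4 higher and 0 lower of 15 at day 4 and 5 higher and 1 lower of 15 at day 8, and MY-LA 2 higher and 0 lower of 15 at day 4 and 6 higher and 1 lower of 15 at day 8. HuT78 had 0 higher and 1 lower of 15. For all lists the HuT78 counts include the 3 MRG-106 arrays that stood apart. Of all genes, 9.55% were called higher and 12% lower in HuT102 at day 4, and 18.4% and 20.7% at day 8. The shares higher and lower were 12.6% and 13.5% in MJ at day 4, 14.5% and 17.6% in MJ at day 8, 12.9% and 12.3% in MY-LA at day 4, 23.0% and 17.8% in MY-LA at day 8 and 9.61% and 10.3% in HuT78. The median log2 change of this list was 0.06 to 0.29 in the 6 comparisons of HuT102, MJ and MY-LA, against -0.03 to 0.02 for all genes. HIP1, which links coats to actin, rose in 5 of those 6 comparisons, and its mean went from 111 ± 20.7 to 281 ± 83.9 in HuT102 at day 8 (1.19 ± 0.17, limma adjusted p = 1.2e-07). ARRB1, a beta-arrestin, rose in MJ and MY-LA at both days, most in MJ at day 8, from 195 ± 39.2 to 612 ± 87.0 (1.58 ± 0.13, limma adjusted p = 4.7e-14). SNAP91, which encodes AP180, the close relative of PICALM, was bright enough for a test in HuT102 only, where it fell by 1.07 at day 4 and by 0.91 at day 8 on the log2 scale.

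Among 13 cargo and SNARE genes was VAMP3, a SNARE that PICALM carries. On its best probe set VAMP3 rose in each of the 6 comparisons in which PICALM rose. Its mean went from 1331 ± 106 to 3927 ± 333 in HuT102 at day 4, from 1133 ± 46.4 to 4055 ± 111 in MJ at day 8 and from 607 ± 28.1 to 1396 ± 115 in MY-LA at day 8. The log2 changes were 1.18 to 1.87 over the 6 comparisons, and in HuT78 it was 0.10 ± 0.07 (2393 ± 187 against 2572 ± 181, limma adjusted p = 0.38). The 2 other SNAREs known as PICALM cargo did not rise in any comparison: VAMP2 fell in MY-LA at day 8 by 0.54 and in HuT78 by 0.65 on the log2 scale, and VAMP8 was called in none of the 5 comparisons in which it was tested. IL2RB, a chain of the interleukin-2 receptor, fell in MJ at both days (by 1.18 and 1.32), in HuT102 at day 8 and in HuT78, and rose in MY-LA at day 8 (0.57 ± 0.16). IGF2R, the receptor for mannose 6-phosphate and IGF2, rose in 5 of the 6 comparisons, by up to 0.82. As a list, 3 rose and 0 fell of 12 tested in HuT102 at day 4 (9.55% and 12% of all genes) and 4 rose and 1 fell at day 8 (18.4% and 20.7%). MJ had 3 up and 3 down, then 3 up and 2 down, of 12 (12.6% and 13.5%, then 14.5% and 17.6% of all genes). MY-LA had 2 up and 1 down, then 4 up and 4 down, of 10 (12.9% and 12.3%, then 23.0% and 17.8%), and HuT78 1 up and 4 down of 12 (9.61% and 10.3%).

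Scission and uncoating genes moved both ways. Of 23 listed, 16 were tested in HuT102 at day 8, with 6 higher and 3 lower (18.4% and 20.7% of all genes), and 16 in MY-LA at day 8, with 2 higher and 4 lower (23.0% and 17.8%). In HuT78 0 rose and 3 fell of 15 (9.61% and 10.3%). SNX18, a sorting nexin, rose in all 6 comparisons of HuT102, MJ and MY-LA, by 0.39 to 2.04, with its greatest rise in HuT102 at day 8 from 140 ± 53.3 to 601 ± 20.2. DNM3, a dynamin, rose in HuT102 at day 8 (0.73 ± 0.23) and fell in MY-LA by 0.88 at day 4 and by 1.71 at day 8 on the log2 scale. Of 13 adaptor genes of the trans-Golgi network and endosomes, 4 rose and 1 fell of 12 in HuT102 at day 8, 2 rose and 2 fell of 12 in MJ at day 8 (14.5% and 17.6% of all genes), and 4 rose and 1 fell of 11 in MY-LA at day 8, while 0 rose and 4 fell of 12 in HuT78. In the 3 other comparisons the background is that just given for the scission genes. CLINT1, an epsin-related protein, rose in 5 of the 6 comparisons, by up to 0.60. Of 15 early and recycling endosome genes, 4 rose and 4 fell of 15 in HuT102 at day 8 (18.4% and 20.7% of all genes), 3 rose and 4 fell of 15 in MJ at day 8 (14.5% and 17.6%) and 3 rose and 4 fell of 14 in MY-LA at day 8 (23.0% and 17.8%). HuT78 had 3 higher and 1 lower of 14 in this list (9.61% and 10.3%). EHD4, an ATPase of recycling endosomes, fell in HuT102 and MY-LA at both days, most in HuT102 at day 8, from 5009 ± 489 to 1434 ± 326, and was not called in MJ or HuT78. RAB4A, a GTPase of rapid recycling, rose in MJ at both days (0.96 ± 0.09 and 1.23 ± 0.09), in HuT102 at day 8 and in MY-LA at day 8.

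**Figure D5:**
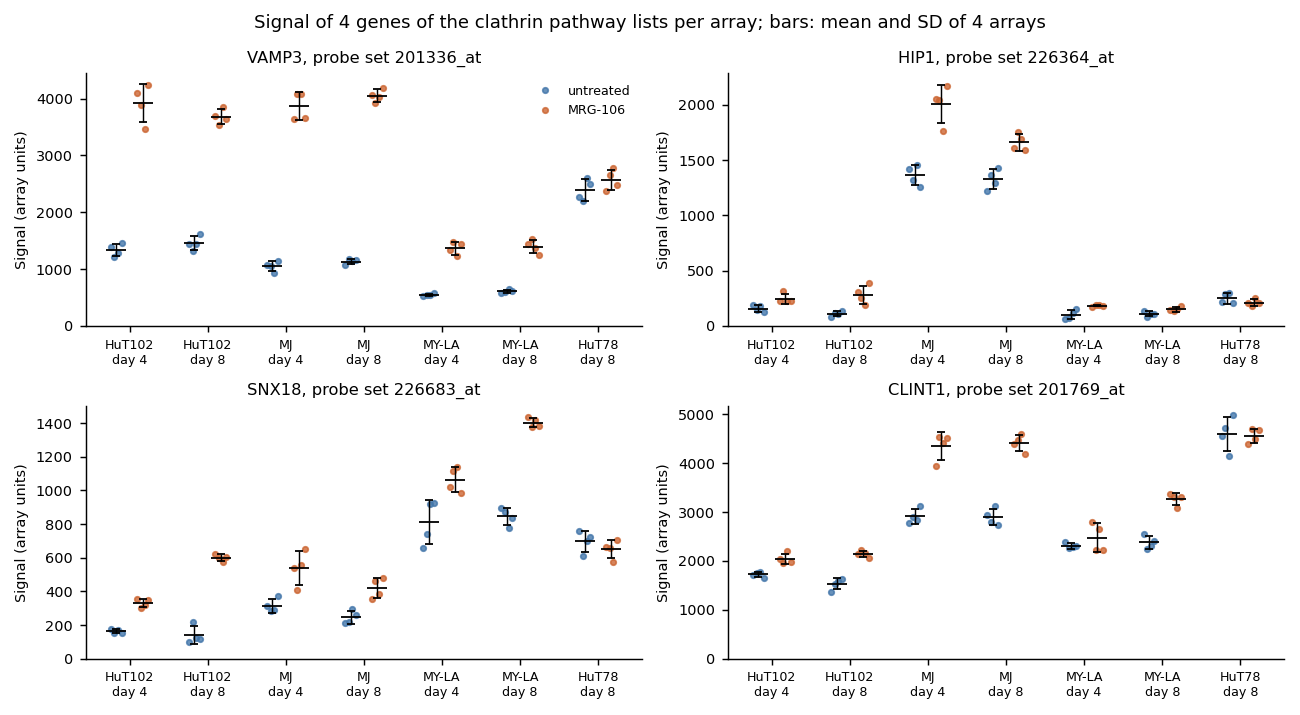
Signal (array units, linear axes from 0) on each array for 4 genes of the pathway lists, VAMP3, HIP1, SNX18 and CLINT1, by line and day, with untreated arrays in blue and MRG-106 arrays in orange, and with horizontal bars and error bars for the mean and SD of 4 arrays. The treated VAMP3 arrays lie over the untreated ones in HuT102, MJ and MY-LA at both days, while in HuT78 the groups overlap (2393 ± 187 untreated and 2572 ± 181 treated).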

How the data were processed

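The values are MAS5 signal intensities per probe set, deposited by the authors as 1 table of 56 arrays and scaled to 1 level (the mean without the highest and lowest 2% was nearly the same on all arrays). MAS5 is named in the submitters' processing notes. Its version and settings, and the dose, are not given in the sources used here. Nothing was rescaled. Values became log2(signal + 16), and limma 3.58.1 in R 4.3.3 fitted the 14 group means (42 residual degrees of freedom, empirical Bayes with an intensity trend). Probe sets dimmer, on average over the arrays in a comparison, than the median of the whole table (signal 73.9) were not tested, and p-values were adjusted over all probe sets tested. All tests were two-sided. Counts per gene use its brightest probe set by mean over the 56 arrays. Array numbers within a group follow accession order and pair nothing. The members and lists were chosen with earlier results of these data known. Of each pathway list at most 4 called genes are named, those that changed most in any treatment comparison; SNAREs carried by PICALM were added after their values were seen. Alternatives were 2 pseudocounts, 2 filters, quantile normalization, 1 probe set per gene, no intensity trend, only the arrays of the lines compared, and each array left out. HuT78 array 1 alone and the pairs of lines at day 4 were added after seeing the data. In simulated data for MJ at day 8, 100 of 27677 probe sets were changed by 0.5 and 100 by 1 on the log2 scale. The fit recovered 30% and 74% of them, with 0 of the wrong sign, and called 8 unchanged probe sets. In the real comparison 7215 of 27516 probe sets were called. With so many more changes the adjusted threshold differs, so these shares do not give the power of the reported tests.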

Additional observations from a re-analysis of the deposited data

Results flagged for a closer look

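In 13 of 126 groups of 4 arrays, 1 array stood apart from the other 3 on a member's best probe set, where chance gives about 1 in 20. Its gap to the nearest other array made up 0.83 or more of the group's range. A small gap can reach that share where the other 3 arrays nearly coincide. For PICALM the arrays apart were the highest treated HuT102 array at day 4 (6946, the others 5528 to 5681) and the lowest treated HuT78 array (2768, the others 3512 to 3622). For EPS15 they were a treated HuT102 array at day 4 (7771, the others 7146 to 7197), a treated MJ array at day 8 (2930, the others 3052 to 3053) and a treated HuT78 array (1678, the others 2117 to 2206). The low PICALM and EPS15 signals of HuT78 came from the same array, MRG-106 array 3. For AP2B1 they were an untreated HuT102 array at day 4 (2291, the others 1872 to 1913), a treated MY-LA array at day 4 (1841, the others 2187 to 2242) and an untreated one (2466, the others 2292 to 2308). For AP2M1 it was an untreated MY-LA array at day 8 (8472, the others 7357 to 7507) and for CLTA an untreated MJ array at day 4 (12269, the others 9745 to 10155). Among the dim genes, AP2A1 had an untreated MY-LA array at 166 at day 4 (the others 218 to 228) and a treated one at 207 at day 8 (the others 149.8 to 153), and EPN1 a treated HuT102 array at 253 at day 8 (the others 114 to 126).

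The effect of MRG-106 differed between days for AP2B1 in HuT102 (-0.36, limma adjusted p = 0.035) and for CLTB in MY-LA (0.61, limma adjusted p = 0.0025). It differed between the 4 lines at day 8, by limma's F test, for 6 members. The widest difference between any pair of lines was 2.24 for PICALM (limma adjusted p = 1.0e-18), 1.01 for AP2B1 (limma adjusted p = 3.0e-10), 0.76 for EPS15 (limma adjusted p = 5.6e-09), 0.63 for CLTB (limma adjusted p = 0.0021), 0.39 for AP2M1 (limma adjusted p = 0.020) and 0.36 for CLTC (limma adjusted p = 0.0032). With HuT78 MRG-106 array 1 alone in its group the differences of AP2M1 and CLTC were no longer called.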

How the results depend on the processing

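Outside the pairs of lines there were 37 calls of a gene in a comparison, by best probe sets, and 0 were lost with log2(signal + 1), with log2(signal + 64), with the filter at the 75th percentile or with 1 probe set per gene. Without a filter 3 were lost, with quantile normalization 3, without the intensity trend 3, with only the arrays of the lines compared 5 and by leaving out 1 array 7, and 0 changed sign. Of 94 such tests with no call, 1 was called with log2(signal + 1), 3 with log2(signal + 64), 1 with the filter at the 75th percentile, 4 with quantile normalization, 1 with 1 probe set per gene, 2 with only the arrays of the lines compared and 6 with 1 array left out. Between pairs of lines 59 calls were made, of which 5 were lost without a filter, 8 with quantile normalization, 4 without the trend, 4 with only the arrays of the lines compared and 11 with 1 array left out, 0 under the 4 other settings, and 7 of the 13 day 8 effects that involve HuT78 with array 1 alone. Of 75 such tests with no call, up to 4 were called under a setting and 8 with 1 array left out. The number of members called in HuT78, 2, became 1 with quantile normalization, 0 with only the HuT78 arrays, 0 with MRG-106 array 1 alone, and 1 to 4 when 1 array was left out. The count for the difference between days in HuT102, 1, became 0 without a filter, without the trend or with only the arrays of HuT102, and 0 to 1 with 1 array left out, and that in MY-LA became 2 with quantile normalization. The count for untreated HuT102 at day 8 against day 4, 1, became 0 under the same 3 settings and 0 to 1 with 1 array left out. Its PICALM change was 0.34 in all 3 (limma adjusted p = 0.073, 0.080 and 0.13) and 0.19 to 0.42 with 1 array left out. The uncalled difference of the day 8 PICALM effect between HuT102 and MY-LA, -0.07, ranged from -0.13 to 0.033 with 1 array left out, and the positive value came without HuT102 MRG-106 array 4. The share of all probe sets called in HuT78, 15.3%, was 5.28% without a filter, 25.6% with the filter at the 75th percentile, 9.06% after quantile normalization, 0.0119% with only the HuT78 arrays, 0.0814% with array 1 alone and 7.44% to 25.9% with 1 array left out. Over 15 comparisons such shares moved by over 1.5 times in 15 without a filter, 9 with the filter at the 75th percentile, 5 with 1 array left out and 3 with only the arrays of the lines compared. The settings differ in the arrays used and in the probe sets tested, and why calls and shares moved was not tested. The shares did not all fall with fewer arrays. With only the MJ arrays in the fit, the share called for the difference between days in MJ went from 0.630% to 2.10%. No paired analysis was possible because the labels give the groups no shared replicate numbers. AP2A1 and EPN1 lay near background, which limits what could be measured for them.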
